A study of Homo sapiens with 6 samples.

Results

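The contractile genes analysed here are SRF itself and 9 genes of the actin-binding contractile apparatus: ACTA2, TAGLN, CNN1, CNN2, CALD1, TPM1, TPM2, TPM4 and MYLK. They were found by gene name, and all 10 had 1 row each among the 20745 genes of the deposited table. The RNA came from AB 8/13 cells, a conditionally immortalized human podocyte line that divides at a permissive temperature and differentiates at a restrictive one. By the paper's methods, the cells were differentiated at the restrictive temperature before treatment. There were 3 vehicle cultures and 3 cultures given 1 µM levamisole for 24 h, each group from different passages of this single line. The vehicle cultures are labelled serum free, while the levamisole labels do not mention serum. The treatment protocol given with the samples names medium without serum for both groups, but the paper's methods name complete medium for the vehicle group. Sequencing used a modified form of CEL-seq, which reads transcripts near their 3′ ends.

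The quantity analysed was the authors' base mean, which is the mean normalized read count of a gene over the libraries of their fit, both treatments together. It has no value per culture, so it carries no standard deviation, and the depth per library is unknown. The remaining columns hold the authors' own comparison of levamisole with vehicle and were not used here. The values below are therefore levels in these podocytes pooled over treatment, and no effect of levamisole is given. Whether neighbouring levels differ cannot be said, because the spread between cultures is not known.

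Serum response factor (SRF) is a transcription factor that binds the CArG box, a short sequence with paired cytosines at one end, paired guanines at the other and A or T bases between them. Its myocardin-related cofactors are held by free actin monomers and enter the nucleus when actin is polymerized, so that SRF output is known to follow the state of the actin cytoskeleton. The target genes studied here encode proteins of actin filaments. Podocytes rely on contractile actin bundles in their foot processes, and smooth muscle cells use the same genes for contraction.

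The CArG box was looked for first, since it is the sequence by which these genes would be bound by SRF. RefSeq promoter windows (GRCh38.p14, from 250 bases before to 50 bases after each start site) matched 9 of the 10 genes in 17 windows. The gene without an entry was TAGLN. An exact box stood in 4 of the 17 windows, 1 each of SRF, CNN2, TPM4 and MYLK. The only MYLK window lies at an internal start near the 3′ end of the gene. The 5′ end of MYLK was therefore not searched. Over all 35116 windows of the table, 1.29% held one. Counted by gene, the box was found for 4 of the 9 contractile genes and for 1.60% of all 27305 genes with an entry. The contractile genes were chosen as known SRF targets, so these shares do not test that status.

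The 5 boxes of these windows follow with 10 bases on each side, 5′ to 3′ on the strand of the gene, with the box in capitals. SRF has 2 of them, which lie 30 and 10 bases before its start site (counted from the first base of the box), at chr6:43171229-43171258 and chr6:43171249-43171278 on the plus strand. The CNN2 box lies 89 bases before the start (chr19:1026509-1026538, plus strand). The TPM4 box lies 173 bases before it (chr19:16067355-16067384, plus strand), and the MYLK box 94 bases before it (chr3:123620623-123620652, minus strand).
SRF, distal: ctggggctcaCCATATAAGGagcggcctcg
SRF, proximal: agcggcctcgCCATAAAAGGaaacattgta
CNN2: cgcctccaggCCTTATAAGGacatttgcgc
TPM4: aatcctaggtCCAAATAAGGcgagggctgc
MYLK: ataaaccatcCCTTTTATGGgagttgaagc

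In GENCODE 44, both SRF boxes and the CNN2 box lie upstream of the annotated gene. The TPM4 box falls in an intron of 1 of its annotated transcripts. The MYLK box is inside the gene, intronic for 32 and exonic for 2 of its 57 transcripts, and the start site it belongs to is 10499 bases from the 3′ end of the gene. An internal promoter near the 3′ end of MYLK is known to give telokin, a short protein that holds the end of the kinase without its catalytic part. Since the reads come from the 3′ end, transcripts of the full kinase and of such a short form cannot be told apart in the MYLK level.

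A wider search took 2000 bases on each side of the same start sites and was added after the first search. It found an exact box for 8 of the 9 genes, that is in 12 of 17 windows, against 18.5% of all windows and 20.3% of all genes. The 17 windows are not independent, because several of them overlap and share a box, and the contractile genes have more start sites per gene than the table as a whole. TPM1 was the 1 gene of the 9 without a box in this range. Its only matched start site, 63048489, lies inside the gene, whose annotated start is 63042620. The range does not reach that annotated start, so the sequence around it was not searched. The box gained by CNN1 is shown because CNN1 is a smooth muscle gene with no exact box in the promoter window. It lies 1069 bases after the start (chr19:11539910-11539939, plus strand), intronic in 4 and exonic in 1 of 10 transcripts. Its 10 capital letters are the same as those of the CNN2 box above.
CNN1: agacgccgcgCCTTATAAGGcggcctcggg

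The box of TPM2 lies 854 and 985 bases before its 2 start sites, and CALD1 has a box 297 bases before one of its 4 start sites and another 1846 bases after a different one. With 1 mismatch allowed, the promoter window held a match for 6 of the 9 genes, against 22.3% of all genes, and the genes gained were ACTA2 and CALD1. The TATAAA motif, searched on both strands, was present in a window of SRF, CALD1 and MYLK, where it overlapped no exact box, against 14.0% of all genes. A match gives the letters only and does not show that SRF was bound there in these cells.

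**Figure D1:**
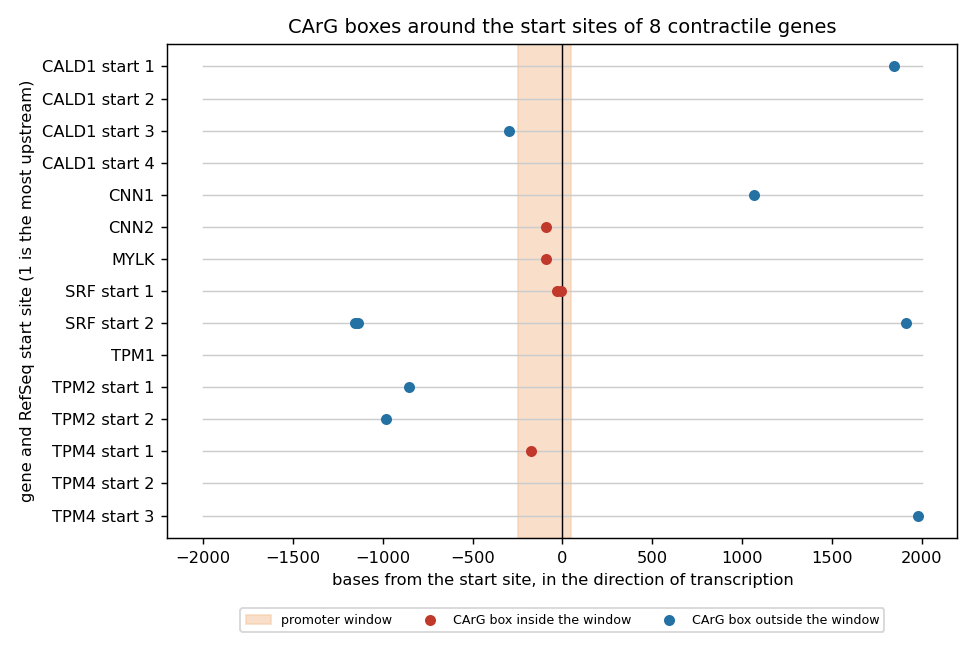
Exact CArG boxes around 15 RefSeq start sites of 8 contractile genes (all with an entry except ACTA2), plotted by distance in bases from the start site (0) in the direction of transcription, with 1 row per start site. The shaded band is the promoter window from 250 bases before to 50 after the start, which holds the 5 boxes of SRF, CNN2, TPM4 and MYLK (red), while 7 of the 8 genes have a box somewhere within 2000 bases.

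The levels of the 10 genes ran from a base mean of 187 for SRF to 24709 for TPM1, a 132-fold range. All 10 lay above the median gene of the table, whose base mean was 21.8, and 8 of the 10 were among the first 1000 places by base mean. Together they took 0.688% of the summed base means. The 22 mitochondrially encoded genes took 34.8%, and without them the share of the contractile genes was 1.05%. TPM1 alone made up 56.6% of the sum over the 10 genes, more than the other 9 together by a factor of 1.31.

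**Figure D2:**
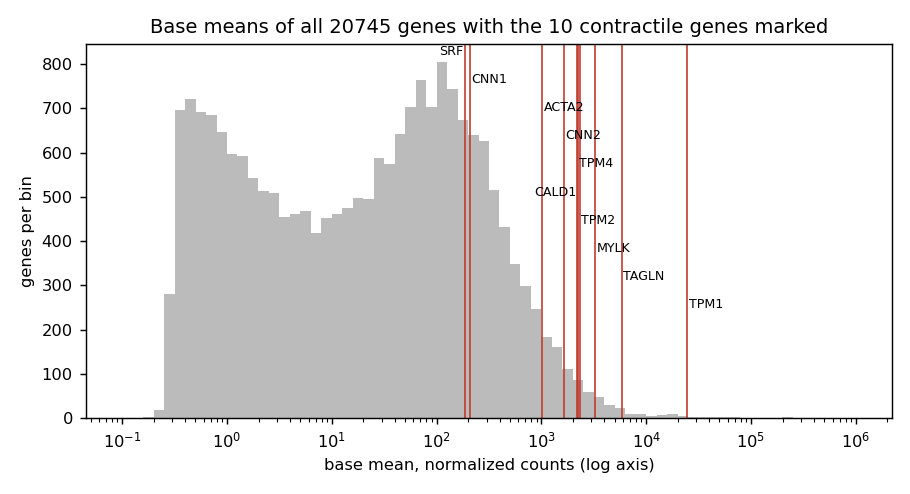
Histogram of the base means (normalized counts, log axis) of all 20745 genes, with the number of genes per bin on the vertical axis and a red line for each contractile gene. All 10 lines lie to the right of the median of 21.8, with SRF (187) and CNN1 (209) apart from the other 8, which start at 1021 with ACTA2.

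SRF, the regulator of the group, had the lowest level (ENSG00000112658, chromosome 6 of GRCh38, 43171269 to 43181506, plus strand). Its base mean of 187 put it at place 4071, above 80.4% of the genes. Its cofactors and partners were listed as 6 genes. MRTFB, a myocardin-related cofactor, had the highest base mean of them at 678 and stood at place 1208, while the related MRTFA had 21.2. MYOCD, the myocardin of heart and smooth muscle, had 2.34. The ternary complex factors, which join SRF at immediate early genes, had base means of 126 for ELK4, 88.5 for ELK3 and 32.3 for ELK1. No level per length was computed for these 6 genes. Whether neighbouring levels among them differ cannot be said, since the spread between cultures is not known.

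Tropomyosins are coiled-coil proteins that lie along the actin filament and set which other proteins can reach it. TPM1 (ENSG00000140416, chromosome 15, 63042620 to 63071915, plus strand) stood at place 18 of all genes by base mean. TPM2 (ENSG00000198467, chromosome 9, 35681992 to 35690056, minus strand), which is abundant in muscle, had a base mean of 2331 and place 242. TPM4 (ENSG00000167460, chromosome 19, 16067021 to 16103002, plus strand), mostly a form of non-muscle cells, had 2207 and place 264. Of the summed base means of the 4 tropomyosin genes, TPM1 took 81.1%, TPM2 7.65%, TPM4 7.25% and TPM3, which was not among the 10 genes, 3.95%. Divided by the length of the merged exons, the share of TPM1 was 62.9% and that of TPM2 27.4%, and divided by the merged coding length they were 77.2% and 9.95%. TPM1 was thus first of the 4 on each scale. Reads from 3′ ends do not grow in number with transcript length. Shares per length, here and for the families below, may therefore set genes with long merged exons or coding parts too low. The table counts whole genes, so the many splice forms of TPM1, with 39 transcripts in GENCODE 44, were not separated.

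TAGLN (transgelin or SM22, ENSG00000149591, chromosome 11, 117199370 to 117207464, plus strand) encodes an actin-binding protein and is an early marker of the smooth muscle lineage. Its base mean was 5825, at place 72. TAGLN2 and TAGLN3, its paralogues, had base means of 1691 and 421. TAGLN made up 73.4% of the base means of these 3 genes, 47.3% per kb of merged exons and 75.7% per kb of coding length. One of its 8 annotated transcripts, the canonical one of 3786 bases, ends inside AP000892.3 (ENSG00000280143), a gene on the same strand with a base mean of 28.9. By the counting rule that leaves reads on overlapping genes uncounted, reads of that long form may be missing from TAGLN.

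Calponins bind actin filaments and lower the activity of myosin on them. CNN1 (ENSG00000130176, chromosome 19, 11538767 to 11550323, plus strand), the form of differentiated smooth muscle, had a base mean of 209, at place 3748. CNN2 (ENSG00000064666, chromosome 19, 1026586 to 1039068, plus strand), found in many cell types, had 1638, at place 402. CNN3, which was not among the 10 genes, had 1182. The share of CNN1 among the 3 calponin genes was 6.90% of the base means, 7.77% per kb of merged exons and 5.34% per kb of coding length, while CNN2 took 54.1%, 47.4% and 48.7%. CNN1 was the lowest of the 3 on each scale.

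ACTA2 (ENSG00000107796, chromosome 10, 88935074 to 88991339, minus strand) encodes the alpha actin of smooth muscle and of activated myofibroblasts. Its base mean was 1021, at place 739. The cytoplasmic actins ACTB and ACTG1 had 35811 and 15623, so that ACTA2 made up 1.95% of the summed base means of the 6 actin genes. On the scale of merged exon length that share was 1.49%, and on that of coding length 2.01%. The other muscle actins lay below the median gene of the table, with base means of 8.05 for ACTG2 (enteric smooth muscle), 4.43 for ACTC1 (heart) and 2.18 for ACTA1 (skeletal muscle).

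Caldesmon and myosin light chain kinase act on the side of myosin. CALD1 (ENSG00000122786, chromosome 7, 134744252 to 134970729, plus strand), whose product blocks myosin from actin until it is released by calcium signals, had a base mean of 2234, at place 260. MYLK (ENSG00000065534, chromosome 3, 123610049 to 123884332, minus strand), whose product phosphorylates the regulatory light chain and so starts contraction, had 3274, at place 155. MYLK2 and MYLK4 had base means of 0.348 and 0.628, so MYLK held 99.97% of the base means of this family as measured. MYLK3 had no row. The regulatory light chain gene MYL9 had a base mean of 1213.

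Per kilobase of merged exons, the order of the 10 genes was TPM1 (1681), TAGLN (889), TPM2 (732), CNN2 (450), CALD1 (228), ACTA2 (182), TPM4 (178), MYLK (104), CNN1 (73.7) and SRF (44.3), in normalized counts per kb. By base mean alone MYLK stood at position 3 and not at position 8. Its merged exons, taken over all annotated transcripts, span 31537 bases, the longest of the 10, against 10113 for its canonical transcript. Reads from 3′ ends do not grow in number with transcript length. The order by base mean is therefore the one that fits such reads. Division by length may set long genes such as MYLK too low, and the order per kb is given only beside it. TPM1 came first and CNN1 and SRF came last on each scale tried.

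**Figure D3:**
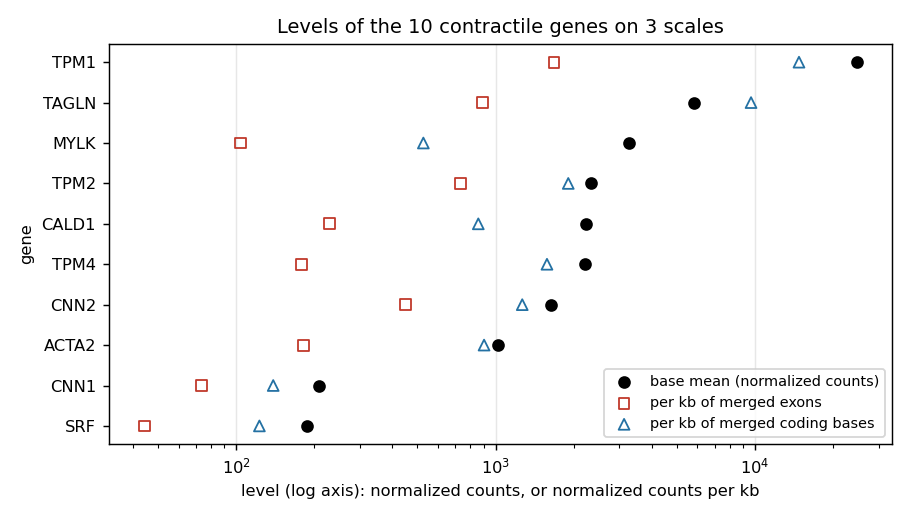
Levels of the 10 genes on a log axis, as base mean (black circles, normalized counts), per kb of merged exons (red squares) and per kb of merged coding bases (blue triangles), with 1 row per gene. TPM1 has the highest value and SRF the lowest on all 3 scales, while MYLK moves from the third place by base mean to the eighth by either length.

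Copies of these genes could take or lend reads. The table had 14 rows named as a pseudogene or antisense RNA of a member of these families, with base means from 0.296 to 19.5. The highest was TPM3P9, and MYLK-AS1 and TPM1-AS had 5.76 and 0.296. In the last 500 bases of the canonical transcript, 60-base stretches (the length of the mapped read) that also occur in a transcript of another gene were absent for 8 of the 10 genes. For TPM4, 54 of 441 such stretches were shared with TPM4P2. For TAGLN, all 441 were shared with AP000892.3, since that end is the overlap described above.

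The label of a contractile programme was set beside markers of the cell types that use it. A base mean of at least 5 was reached by 64.3% of all genes. Of 9 smooth muscle markers, 6 had a row, 4 had a base mean of at least 5 and 3 lay above the median gene, and the median of the 6 was 15.6. The 4 were SMTN (260), MYH11 (66.9), SYNM (23.0) and ACTG2 (8.05), while LMOD1 and MYOCD had 1.52 and 2.34. DES, PLN and KCNMB1 had no row. MYH11, the smooth muscle myosin, thus had a lower base mean than each of the 10 contractile genes, and MYH9, the non-muscle myosin, had one of 22809. Of 12 podocyte markers, 10 had a row and 8 had a base mean of at least 5, led by CD2AP (929) and KIRREL1 (253). Only 5 of the 10 lay above the median gene, and their median was 19.1, below the 21.8 of the table. The transcription factor WT1 had 6.21, SYNPO 22.8, PODXL 15.3 and PTPRO 0.333. NPHS1, a gene of the slit diaphragm, had no row.

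Markers of other cell types were measured in the same way. The 3 mesangial markers with a row had base means of at most 4.14 (PDGFRB), the 2 endothelial ones at most 0.434 and the 2 leukocyte ones at most 2.40. Of 5 fibroblast markers, 4 had a row, 3 of these lay above the median gene, and the median of the 4 was 278. The 3 were COL1A1 (2733), LUM (519) and DCN (36.9), whereas COL1A2 had 1.24. AQP1 was the only tubule marker above 5, at 243. The part of any other cell type in the levels of the contractile genes was not tested.

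**Figure D4:**
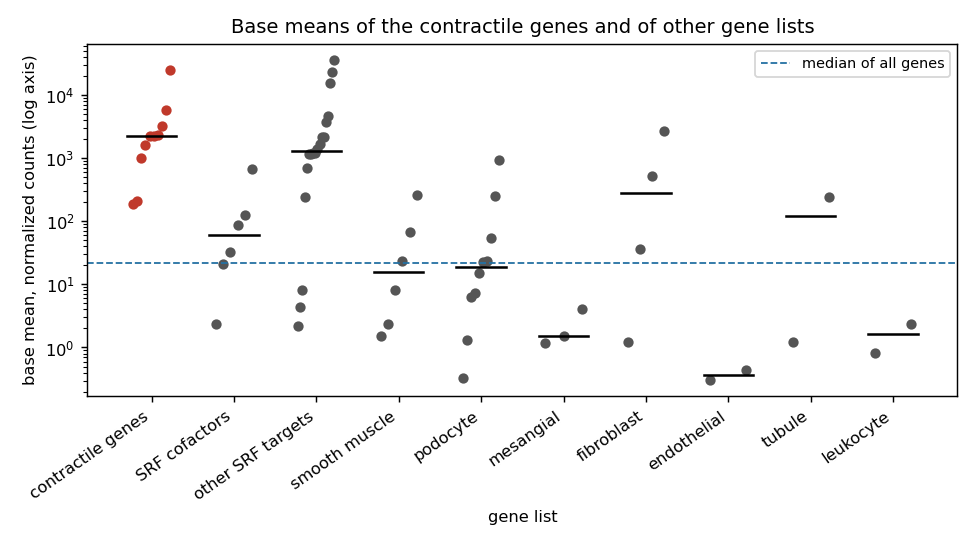
Base means (normalized counts, log axis) of the genes of each list on the horizontal axis, with 1 point per gene that had a row, a black bar for the median of the list and a dashed line for the median of all genes. The 10 contractile genes (red) all lie above that line and have a median of 2220. The median was 60.4 for the SRF cofactors, 15.6 for the smooth muscle markers, 19.1 for the podocyte markers and 278 for the fibroblast markers.

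Other known targets of SRF were listed as 18 genes, all of which had a row. Their base means ran from 2.18 to 35811 with a median of 1294, and 15 of the 18 lay above the median gene, against all 10 of the contractile genes. VCL (vinculin, which ties actin to adhesions) had 2165, FLNA (filamin A, a crosslinker) 697 and FHL2 (a LIM-domain protein) 4714. The matricellular genes CTGF and CYR61 had 2161 and 1376. A promoter window was matched for 15 of the 18, and an exact CArG box stood in that of 7 (ACTG1, ACTG2, ACTC1, ACTA1, FLNA, FHL2 and TGFB1I1), against 4 of 9 of the contractile genes. ACTG2, ACTC1 and ACTA1 were at 2.18 to 8.05 despite their boxes, so a box in the window did not go with a high level in every gene.

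Over all measured genes with a promoter window, 195 had an exact box and 12017 had none. The median base mean was 84.7 with a box and 62.2 without, and a base mean of at least 1000 was reached by 11.3% and 4.70%. These are descriptions of 1 pooled value per gene, and the 195 include 4 of the contractile genes. By base mean, MYLK (box at an internal start) was the seventh, TPM4 the ninth and CNN2 the twelfth of the 195. They stood behind ACTN1 (34950) and ACTG1 at the head. These neighbours were picked by their base mean after the values were seen.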

How the data were processed

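Bulk RNA sequencing of 3 vehicle and 3 levamisole cultures was analysed, with groups taken from the treatment label, since the word control also stands in the titles of the levamisole samples. The authors trimmed reads with Trim Galore 0.4.5, mapped them to GRCh38 (Ensembl 95) with STAR 2.7.5a, counted them with HTSeq 0.11.0 at default parameters and compared groups with DESeq2 1.22.0. The authors deposited 1 table, in which the base mean column is a signal: read counts scaled by size factors and averaged by them over libraries. Its log2 fold change, standard error, Wald statistic, p-value and adjusted p-value belong to the authors' comparison and were not used, and no test was run, because no values per culture were analysed.

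Ranks, shares and levels per kb were computed with Python 3.11.15, NumPy 2.4.6 and pandas 2.3.3, and figures drawn with matplotlib 3.10.9. Positions and lengths come from GENCODE 44, a later annotation on the same assembly, which matched 20599 of 20745 identifiers. Promoters come from RefSeq (GRCh38.p14), matched by symbol. All 17 windows of the contractile genes equalled the genome sequence. One sequence and one marker gene are not reported here. The box search was tested on simulated data with planted boxes of its own pattern, which checks the code only. Its pattern reads the same on both strands. The 10 genes and all lists were chosen with earlier results of these data known. The genes named are the 10 members, all SRF cofactors and family genes, and otherwise the extremes of each list. Some further list genes were named after their values were seen.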

Additional observations from a re-analysis of the deposited data

How the results depend on the processing

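No paired analysis was possible because the table gives only means over cultures. For that reason edgeR and DESeq2 fits, other normalizations and left-out replicates were not run. Coding length from RefSeq proteins was not run for lack of a protein table, and the annotated coding length took its place. The share of the summed base means taken by the contractile genes was 0.688% over all genes, 1.05% without mitochondrially encoded genes and 0.689% where the base mean had to reach 5. Against the order per kb of merged exons, 5 of the 10 genes kept their position without division by length, 7 with merged coding length and 5 with the length of the canonical transcript. The count of genes with a CArG box went from 4 in the promoter window to 8 within 2000 bases of a start site and to 6 with 1 mismatch allowed, and it stayed at 4 in the upstream bases alone. At a base mean of at least 10, 3 smooth muscle and 6 podocyte markers were left of 4 and 8. The searches over 2000 bases and the lengths from the annotation were chosen after seeing the data.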
